A study of Mus musculus with 4 samples.

Results

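Mitochondria take up, buffer and release calcium, and 9 genes of this machinery were followed in group 2 innate lymphoid cells (ILC2s), tissue lymphocytes that make type 2 cytokines. They are Mcu, Mcub, Smdt1, Micu2 and Mcur1 of the uniporter, Letm1 and Slc8b1 of the inner membrane exchangers, and Vdac1 and Vdac2 of the outer membrane. The genes were chosen by name with earlier results of these data known, and all 9 were found among the 22554 rows of the deposited table. Lung ILC2s were sorted from wild-type BALB/c mice aged 6 weeks, and both groups were cultured with IL-2, IL-7 and IL-33, overnight by the labels and for a full day by the study's own text. The vehicle group (labeled Control) and the compound 5D group had 2 libraries each, and no genetic change was made in either. Compound 5D blocks the Orai family of plasma membrane pores, which admit calcium once the stores inside a cell are emptied. The labels do not say whether the 2 libraries of a group came from separate mice or cultures, so that p-values measure the spread between these libraries, which may be technical. In such bulk RNA, fewer cells with a transcript and less of it per cell cannot be told apart.

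Calcium crosses the outer membrane of the mitochondrion through the voltage-dependent anion channels and then enters the matrix through the uniporter, driven by the membrane potential. The pore is built from MCU, and MCUB is a related subunit that joins the same complex and lowers its conductance. EMRE, the product of Smdt1, is needed for the pore to conduct and ties it to the MICU proteins, which close it at low calcium and open it as calcium rises. Calcium leaves the matrix through a sodium-calcium exchanger encoded by Slc8b1. In lymphocytes, mitochondria close to the plasma membrane take up calcium that entered through Orai channels, which helps to keep these channels open.

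The 4 libraries held between 20096555 and 28697265 counts on genes, and mitochondrially encoded genes took 0.981% and 1.06% of the counts with vehicle and 0.809% and 0.808% with 5D. All 10 ILC2 marker genes were detected. Levels are given as normalized CPM, the count of a gene when the normalized library is scaled to 1000000 counts, and the lineage factor Gata3 stood at 1095 ± 5.54 in the vehicle group (mean ± SD, n = 2). The summed markers of the ILC2s lay between 5835 and 6016 normalized CPM with vehicle and between 5535 and 5801 with 5D. Among them Il2ra, the most abundant, had 2221 and 2068 normalized CPM with vehicle and 1771 and 1874 with 5D (log2 fold change -0.23, edgeR adjusted p = 0.0878). Klrg1 and Thy1 were also lower and Il1rl1 higher at p under 0.05 before adjustment, and 0 of the 10 passed after it. Before adjustment 1 of the 10 was higher and 3 were lower, next to 3.5% and 3.84% of all genes tested. Of the markers of other cells, the table held 5 of 7 for T cells (summed to at most 27.7 normalized CPM in a library), 2 of 5 for B cells (19.4), 6 of 7 for myeloid cells (7.45), 5 of 8 for granulocytes and mast cells (5.55), 5 of 6 for NK cells and ILC1s (70.7) and 7 of 8 for structural lung cells (49.9). Cd4, S100a9, Scgb1a1, Col1a2 and Pdgfra had 0 counts in all 4 libraries. Over the 4 libraries, most of the T cell sum was Cd3g (21.6 to 24.6 normalized CPM) and most of the B cell sum Cd79b (13.4 to 19.1). Nearly all of the structural sum was Epcam (25.5 to 27.7) and Pecam1 (15.7 to 23.7). The NK and ILC1 sum, nearly all of it Gzma, was 46.0 to 50.3 with vehicle and 53.9 to 70.7 with 5D. Gzma was higher and Pecam1 lower with 5D at p under 0.05 before adjustment (edgeR adjusted p = 0.531 and 0.642). The part of these markers and of the mitochondrially encoded share in the results was not tested.

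Mcu and Mcub can be told apart by their reads. The coding sequences of both genes share 57.3% of their aligned bases, with no identical run longer than 11 bases. The stretch shown here encodes the mouth of the pore, where the DIME motif holds the calcium-binding acidic residues, and the capitals mark the 12 bases of these 4 codons. It lies in a coding exon of Mcu at chr10:59454979-59455062 and in a coding exon of Mcub at chr3:129916972-129917055, both on the minus strand of mm10, with bases taken from the GENCODE M21 transcripts and written 5′ to 3′.
Mcu: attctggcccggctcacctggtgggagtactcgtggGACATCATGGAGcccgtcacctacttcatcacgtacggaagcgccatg
Mcub: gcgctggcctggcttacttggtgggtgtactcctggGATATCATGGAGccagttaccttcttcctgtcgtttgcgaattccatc
Of the 84 bases, 61 were the same in both genes. A single base differed within the capitals, C39T counted from 1 at the first base shown with the Mcu base first, and it leaves the encoded motif unchanged. Of the 28 codons, 11 encoded another residue in Mcub, 3 of them before the motif and 8 after it. The changes C10T and A26T are among those before the motif and each alters the residue encoded.

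Of the 17650 genes tested, 3.5% were higher and 3.84% lower with 5D before adjustment (p under 0.05), together 7.34%. None of the 9 genes passed that threshold in either direction by edgeR's quasi-likelihood test, and 0 passed by DESeq2's Wald test or by limma-voom. After adjustment over all genes tested their p-values lay between 0.719 and 0.982, in a comparison where 0.0963% of the genes passed (0.0283% higher and 0.068% lower). The log2 fold changes ran from -0.35 (Slc8b1) to 0.10 (Mcu) with a median of -0.033, against a median of -0.0016 over all genes tested. For 4 genes the value was above 0 and for 5 below it. In 7 of the 9 genes the libraries of the groups overlapped, in 2 (Letm1 and Slc8b1) the vehicle libraries were both higher, and in 0 the 5D libraries were both higher. Over all genes tested the groups were apart in 37.6%, with the 5D libraries higher in 18.7% and lower in 18.8%. The 9 genes together made up between 978 and 1010 normalized CPM of a library, with 997 and 1010 for vehicle and 978 and 1010 for 5D.

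**Figure D1:**
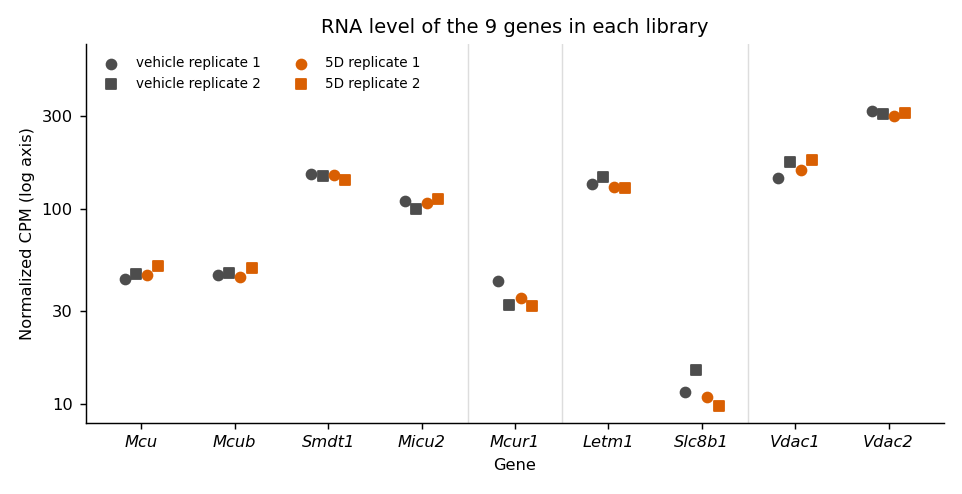
Normalized CPM (log axis) of the 9 genes in each of the 4 libraries, grey for vehicle and orange for 5D, with circles for replicate 1 and squares for replicate 2. The libraries of both groups overlap for 7 genes, whereas for Letm1 and Slc8b1 both 5D libraries lie below both vehicle libraries.

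Mcu (ENSMUSG00000009647.13), which encodes the pore-forming subunit, lies on chromosome 10 of mm10 from 59446984 to 59616692. It was measured at 43.6 and 46.3 normalized CPM with vehicle and at 45.7 and 50.7 with 5D. The groups overlapped, since 5D replicate 1 lay below vehicle replicate 2. This gave a log2 fold change of 0.10 (standard error, SE, 0.095, edgeR adjusted p = 0.883 by the method of Benjamini and Hochberg). Its 95% interval ran from -0.11 to 0.31, a change between -7.11% and 23.9%. Over the 4 fits that each leave out 1 library, the value for Mcu ranged from 0.022 (without 5D replicate 2) to 0.17 (without 5D replicate 1).

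Mcub, the gene of the subunit that lowers conductance, lies on chromosome 3 from 129914960 to 129970206. Its normalized CPM was 45.8 and 46.9 with vehicle and 44.6 and 49.6 with 5D, so that the 5D libraries lay on either side of the vehicle libraries. The fit gave a log2 fold change of 0.025 (SE 0.093, 95% interval -0.18 to 0.23, edgeR adjusted p = 0.982). Leaving out 5D replicate 2 turned its sign, to -0.056, and it was 0.095 without 5D replicate 1.

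Within a library the counts of Mcub and Mcu can be set against each other without any scaling between libraries. Per kb of all annotated exons, Mcub made up 84.7% and 84.2% of the 2 genes' summed level with vehicle and 83.7% and 83.7% with 5D, a difference of -0.71 percentage points. The share was lower in each 5D library than in each vehicle library. It rests on 927 to 1451 counts of a gene in a library. Its counting error was not worked out, so that the difference is not read as a change of the share. The exact permutation test of 2 against 2 libraries gives no p below 0.333, and no other test of the share was run. The size of the share depends on the length that is used, because the exons of Mcu add up to 6936 bp over 5 transcripts and its longest transcript has 2872 bp. Per kb of the longest transcript the share of Mcub was 69.2% with vehicle and 68.0% with 5D.

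Smdt1 encodes EMRE, the small subunit without which the pore does not conduct, and it lies on chromosome 15 from 82338959 to 82349091. Its level was 150.4 and 147 normalized CPM with vehicle and 148 and 141 with 5D. The libraries of both groups overlapped. EMRE's gene had a log2 fold change of -0.040 (SE 0.059, edgeR adjusted p = 0.935), its 95% interval being -0.17 to 0.089. The value for Smdt1 was -0.0050 without 5D replicate 2 and -0.082 without 5D replicate 1. Exons of Smdt1 share 245 bp with Pheta2 on the same strand, and reads there could have been given to either gene.

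Micu2 encodes a gatekeeper that keeps the pore closed at rest. The gene lies on chromosome 14 from 57916261 to 57999262 and had 109 and 99.2 normalized CPM with vehicle and 107 and 113 with 5D, where again the groups overlapped. The log2 fold change of Micu2 was 0.074, with a 95% interval from -0.081 to 0.23 and an edgeR adjusted p of 0.888. It was 0.0054 without vehicle replicate 2 and 0.14 without vehicle replicate 1. Micu3, a paralog best known from brain and muscle, had only 32 to 51 counts per library. Its log2 fold change of -0.31 had a 95% interval from -1.22 to 0.59, so that a change of Micu3 was not detectable at this depth unless it was large.

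Mcur1 encodes an inner membrane protein that acts as a scaffold for assembly of the uniporter, and it lies on chromosome 13 from 43538393 to 43560191. The vehicle libraries were far apart, at 42.6 and 32.03 normalized CPM, and held both the highest value and one close to the lowest of the 4. The 5D libraries had 35.0 and 31.8. Its log2 fold change of -0.16 (SE 0.13, edgeR adjusted p = 0.857) rested on 1 vehicle library. It was 0.055 without vehicle replicate 1 and -0.35 without vehicle replicate 2, where edgeR gave an unadjusted p-value of 0.00771 and an adjusted one of 0.351.

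Letm1 encodes an inner membrane protein of cation-proton exchange whose loss swells mitochondria, and it lies on chromosome 5 from 33739673 to 33782817. Its level was 133 and 145 normalized CPM with vehicle and 129 and 128 with 5D. The higher 5D library was still below the lower vehicle library. At -0.12 on the log2 scale (SE 0.063, 95% interval -0.25 to 0.023), the difference did not pass the test (edgeR unadjusted p = 0.0929, adjusted p = 0.752). It was -0.18 without vehicle replicate 1 (edgeR unadjusted p = 0.0306, adjusted p = 0.377) and -0.058 without vehicle replicate 2. Ghitm, whose product TMBIM5 is another calcium-proton exchanger of the inner membrane, was at 437 ± 0.897 normalized CPM with vehicle and 441 ± 22.7 under 5D (SD, n = 2 each), a log2 fold change of 0.012 (edgeR adjusted p = 0.985).

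Slc8b1 encodes NCLX, the exchanger that extrudes calcium from the matrix for sodium, and it lies on chromosome 5 from 120511168 to 120534024. It was the lowest of the 9 genes, and its counts were 266 and 297 for vehicle against 295 and 278 for the deeper 5D libraries. These correspond to 11.5 and 14.8 normalized CPM with vehicle and to 10.9 and 9.72 with 5D. The 5D values were both below the vehicle values, but the vehicle libraries differed from each other by 0.37 on the log2 scale, more than the means of the groups did at -0.34. The fitted log2 fold change was -0.35 (SE 0.18, edgeR unadjusted p = 0.0708, adjusted p = 0.719). Its 95% interval, from -0.73 to 0.035, was the widest of the 9 and spanned changes of -39.9% to 2.45%. Without vehicle replicate 1 the value was -0.53 (edgeR unadjusted p = 0.0112, adjusted p = 0.242) and without vehicle replicate 2 it was -0.16.

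Vdac1 and Vdac2 encode anion channels of the outer membrane that pass metabolites and calcium, and VDAC1 is the member best known for passing calcium released from the endoplasmic reticulum (ER). Vdac1, on chromosome 11 from 52360860 to 52389397, had 144 and 173 normalized CPM with vehicle and 159 and 178 with 5D. Here the spread within the vehicle group was wider than the gap between the groups. The log2 fold change of Vdac1 was 0.089 (SE 0.086, edgeR adjusted p = 0.889). It was -0.046 without vehicle replicate 1 and 0.23 without vehicle replicate 2, where edgeR gave an unadjusted p-value of 0.00403 and an adjusted one of 0.248.

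Vdac2, on chromosome 14 from 21825238 to 21845879, was the most abundant of the 9 genes in counts and the most precisely measured. Its normalized CPM was 317 and 305 with vehicle and 299.6 and 309 with 5D, and the groups overlapped. The 95% interval of its log2 fold change of -0.033 ran from -0.14 to 0.073 (SE 0.048, edgeR adjusted p = 0.935), a change between -9.17% and 5.18%. It was -0.0085 without vehicle replicate 1 and -0.063 without vehicle replicate 2. The pseudogene Gm7832 shares a stretch of 881 nt at 97.0% identity with Vdac2 but held at most 82.2 counts in any library, and 25 bp of its exons overlap Comtd1 on the other strand, where reads cannot be told apart without strand. Vdac3, the paralog that was not among the 9, was at 222 ± 11.3 normalized CPM with vehicle and 227 ± 5.55 under 5D (SD, n = 2 each), a log2 fold change of 0.038 (edgeR adjusted p = 0.935), and its reads could be split with Vdac3-ps1, which held up to 249.6 counts.

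**Figure D2:**
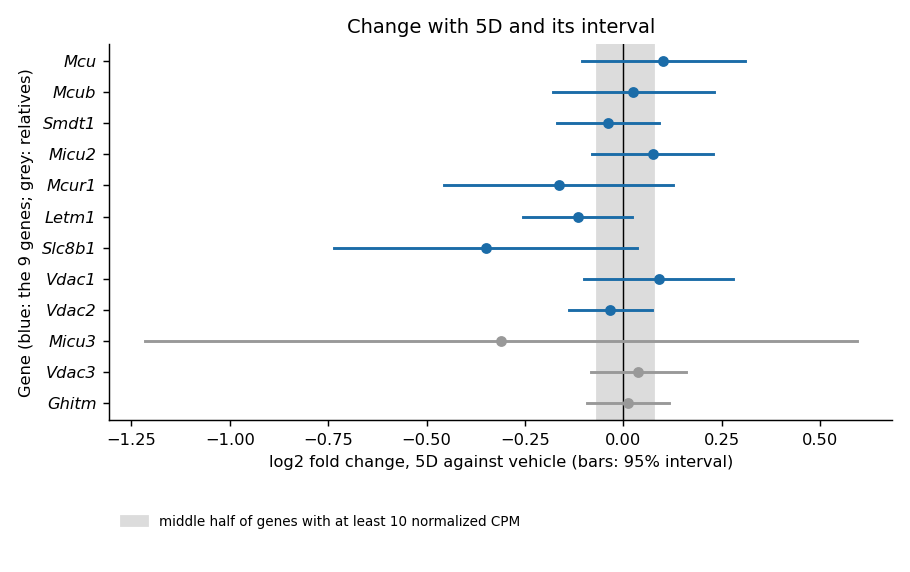
Log2 fold change of 5D against vehicle (points) with 95% intervals (bars) from the fit across all genes, for the 9 genes in blue and for 3 relatives in grey. The shaded band from -0.068 to 0.079 runs from the lower to the upper quartile of the 8737 genes with at least 10 normalized CPM, and each of the 9 intervals includes 0.

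Each of the 9 intervals included 0, and 7 of them lay wholly within 25% of the vehicle level, the exceptions being Mcur1 and Slc8b1. Intervals of this width were not counted over all genes tested, so that the 7 are not a result about these genes. The SEs of the 9 ran from 0.048 to 0.18, next to a median of 0.093 over the 8737 genes of at least 10 normalized CPM. Among these 8737 genes the lower and upper quartiles of the log2 fold change were -0.068 and 0.079. Of the 9 genes, 4 (Mcub, Micu2, Smdt1 and Vdac2) fell between them. For 0 of the 9 genes was the gap between the group means larger than the gaps within both groups. In 7 of them the 2 vehicle libraries alone differed by more than the groups did, and in Mcu and Smdt1 the 2 5D libraries did. Such gaps were not counted over all genes tested, so that these counts are not a result about the 9 genes.

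The order of the genes by RNA level was read per kb of annotated exons, since longer transcripts yield more reads. Smdt1 led with 99.2 normalized CPM per kb (SD 2.77 over the 4 libraries), which placed it above 96.5% of the genes with a known length. Vdac2 and Vdac1 followed at 64.6 and 62.4 normalized CPM per kb, and their ranges over the libraries overlapped. Next came Mcub and Micu2 at 35.4 and 34.7 per kb, which were likewise not separated by their spread. Letm1 had 13.8, Mcu 6.72, Mcur1 4.99 and Slc8b1 3.38 normalized CPM per kb, and each of these lay above the next in all 4 libraries without overlap of their ranges. Per kb of exons, the RNA of the pore subunit gene Mcu thus lay above Mcur1 and below Mcub, Micu2 and Smdt1. Before division by length Mcu and Mcub were alike, at 46.6 and 46.7 normalized CPM (means of the 4 libraries). Their order therefore rests on the annotated lengths, 6936 bp for Mcu and 1318 bp for Mcub. Which transcripts the cells expressed was not examined. With the longest transcript as the length, Mcub and Micu2 changed places, and the other 7 genes kept theirs.

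**Figure D3:**
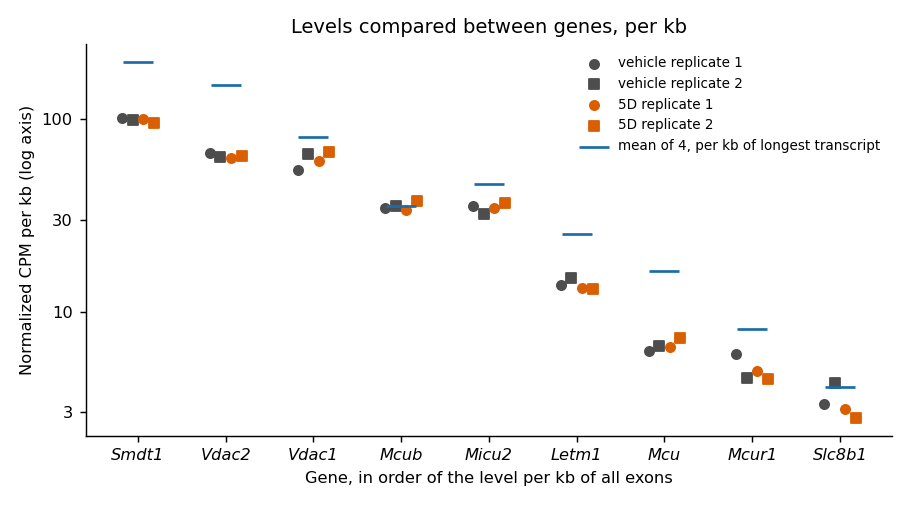
Normalized CPM per kb of all annotated exons (log axis) for the 9 genes in each library, with vehicle in grey and 5D in orange. Blue dashes give the mean of the 4 libraries per kb of the longest transcript, which raises Mcu from 6.72 to 16.2 and Smdt1 from 99.2 to 199 and leaves Slc8b1 lowest.

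Ratios between 2 genes within a library do not depend on the scaling. Per kb of exons, the ratio of Micu2 to Mcu was 5.63 and 4.82 with vehicle and 5.25 and 5.00 with 5D, and that of Smdt1 to Mcu was 16.2 and 14.9 against 15.2 and 13.02. In both ratios the groups overlapped. The ratio of Letm1 to Mcu was 2.20 and 2.25 with vehicle and 2.03 and 1.81 with 5D. The ratio of the extruding to the importing gene, Slc8b1 to Mcu, was 0.526 and 0.642 with vehicle and 0.476 and 0.384 with 5D. In the ratios of Letm1 and of Slc8b1 to Mcu the 5D values were all below the vehicle values, with vehicle replicate 1 and 5D replicate 1 the closest of the Slc8b1 values. With the ratio of Mcub to Mcu, 3 of the 7 ratios shown had groups that did not overlap, and all 3 share Mcu as denominator. Single genes did so in 37.6% of all genes tested, and no such share was computed for ratios. The count of ratios is therefore not a result about these genes. The ratio of Vdac1 to Vdac2 was 0.823 and 1.03 with vehicle and 0.965 and 1.05 with 5D, which overlap.

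**Figure D4:**
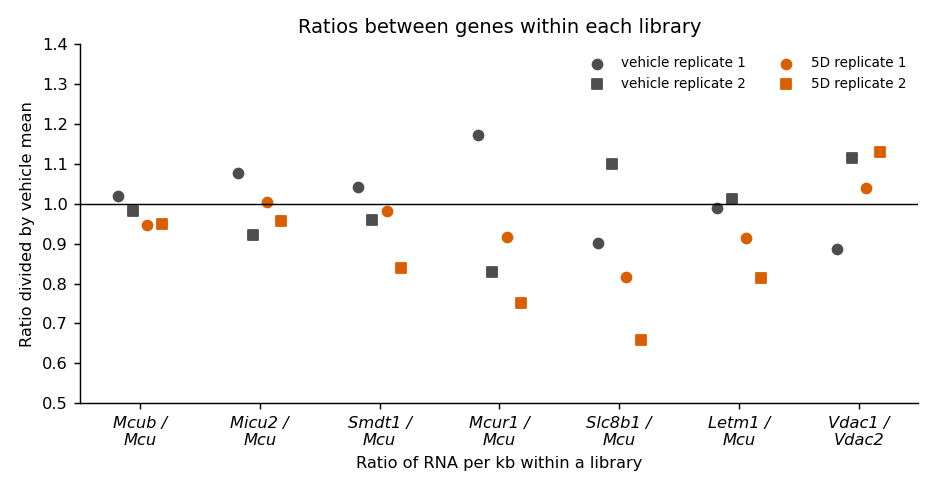
Ratio of the RNA levels per kb of 2 genes within each library, divided by the mean ratio of the 2 vehicle libraries, with vehicle in grey and 5D in orange. The 5D points lie below both vehicle points for Mcub, Slc8b1 and Letm1 against Mcu, and overlap with them for the other 4 ratios, next to 37.6% of all single genes tested with groups apart.

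Around these 9 genes, 74 further genes were listed in 5 groups, and 70 of them were tested. Before adjustment, 5 had a p-value under 0.05 and were higher with 5D and 3 were lower, and 0 passed after adjustment over all genes tested (edgeR's quasi-likelihood test). Over all genes tested these shares were 3.5% and 3.84%. The lists had medians of the log2 fold change between -0.039 and 0.048.

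In the first group, of paralogs, further exchangers and uniporter assembly or proteolysis factors, 12 of 15 genes were tested, 2 passed the unadjusted threshold as higher and 0 as lower. Ucp2, an inner membrane carrier that is abundant in lymphocytes, had the highest level at 1423 ± 13.5 normalized CPM with vehicle and 1518 ± 32.4 under 5D (SD, n = 2 each), a log2 fold change of 0.094 (SE 0.034, edgeR unadjusted p = 0.0196, adjusted p = 0.566). Slc8a1, a sodium-calcium exchanger mainly of the plasma membrane, had 9 and 5 counts with vehicle and 35 and 24 with 5D. Its log2 fold change of 1.71 (SE 0.62, edgeR adjusted p = 0.566) thus rests on few reads.

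Calcium that reaches the matrix activates dehydrogenases, and carriers of the inner membrane sense it from outside. Of 17 genes listed for such enzymes and carriers 16 were tested, and 3 passed the unadjusted threshold as higher and 1 as lower. Higher were Gpd2 with a log2 fold change of 0.25, Slc25a24 with 0.20 and Idh3b with 0.14 (edgeR adjusted p = 0.543, 0.646 and 0.641). Gpd2 is the glycerol phosphate dehydrogenase whose outward face binds calcium, Slc25a24 a calcium-regulated ATP carrier, and Idh3b a subunit of isocitrate dehydrogenase. Pdp2, a phosphatase that switches on pyruvate dehydrogenase and, unlike its paralog PDP1, is not known to be stimulated by calcium, was the one lower, at 9.48 ± 0.800 normalized CPM with vehicle and 5.78 ± 0.0101 under 5D (SD, n = 2 each; edgeR adjusted p = 0.440). Ogdh, the most abundant gene of the list, had a log2 fold change of -0.060 (edgeR adjusted p = 0.854).

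Among 14 genes of calcium transfer from the ER to mitochondria, 0 passed the unadjusted threshold as higher and 1 as lower. This was Itpr2, an inositol trisphosphate receptor of the ER, at 210.1 ± 10.3 normalized CPM with vehicle and 182 ± 20.2 under 5D (SD, n = 2 each), a log2 fold change of -0.20 (SE 0.073, edgeR adjusted p = 0.566). Hspa9, the chaperone that bridges this receptor to VDAC1, led the list in level, with a log2 fold change of 0.035 (edgeR adjusted p = 0.928). Of 12 partners of the outer membrane channels and of the permeability transition, 0 passed in either direction, and their most abundant gene was Slc25a5, an adenine nucleotide carrier, with a log2 fold change of -0.032 (edgeR adjusted p = 0.904).

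General mitochondrial genes formed the last list. Their RNA is not a measure of the content of the organelle, which was not tested here. The paper reports lower mitochondrial mass in treated cells, measured with a fluorescent dye. Mitochondrially encoded genes took 0.981% and 1.06% of the counts with vehicle and 0.809% and 0.808% with 5D. Of 16 genes of import, cristae and matrix, 0 passed as higher and 1, Tomm20, passed the unadjusted threshold as lower, with a log2 fold change of -0.15 (edgeR adjusted p = 0.624). Their median log2 fold change was -0.014, next to -0.033 for the 9 genes. Cs, citrate synthase and the most abundant of them, was at 449 ± 8.44 normalized CPM with vehicle and 439.7 ± 6.8 under 5D (SD, n = 2 each). Leaving out single libraries moved the number of genes past the unadjusted threshold over the 5 lists from 8 to between 3 (without 5D replicate 1) and 11 (without vehicle replicate 1), and to 5 without vehicle replicate 2.

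**Figure D5:**
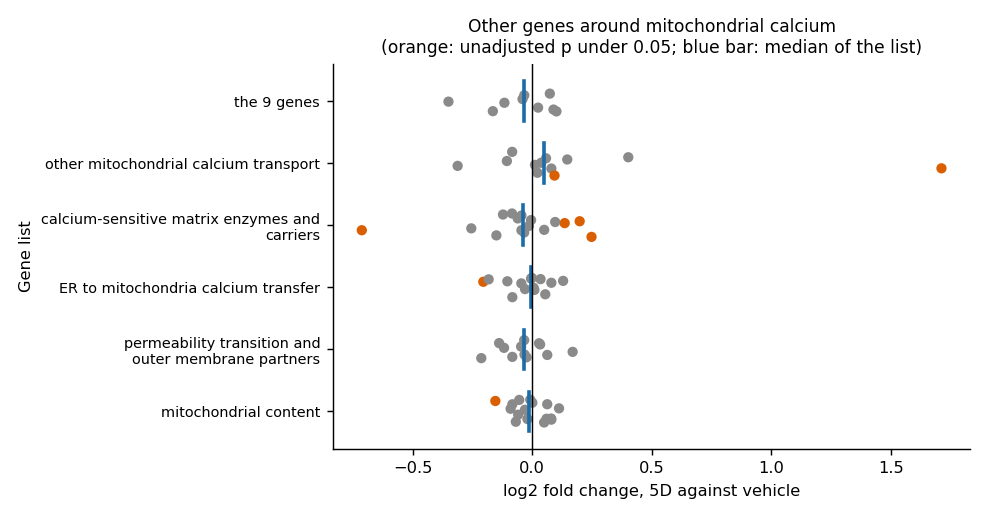
Log2 fold change of 5D against vehicle for each tested gene of the 9 and of the 5 further lists, 1 point per gene, with orange for p under 0.05 before adjustment and a blue bar for the median of a list. None of the 9 genes is orange, and the point far to the right is Slc8a1 at 1.71.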

How the data were processed

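The authors made cDNA with a low-input kit, sequenced it on a NextSeq system, aligned the reads with STAR 2.6.1 to mm10 with GENCODE M21, and quantified them in Partek. CASAVA 1.8.2 is also named in the submitters' processing notes. The deposited values are estimated counts per gene before normalization, of which 51.5% to 54.6% in a library were whole numbers (within 1e-09), and they were rounded here. Upper-quartile factors were applied, and the 17650 genes whose normalized counts averaged 1 or more and summed to 10 or more were kept. Vehicle and 5D were compared with edgeR 4.0.16 (quasi-likelihood, two-sided, no covariates, R 4.3.3); p-values were adjusted over these genes by the Benjamini-Hochberg method. SEs were taken as the size of the log2 value divided by the root of the F statistic. Alternatives used DESeq2 1.42.0, limma 3.58.1, other scalings and filters, unrounded counts, a replicate block and the omission of each library. Replicates differed by more than counting error (chi-square per gene 6.10 and 6.66) and were kept as separate samples. Lengths, loci and coding sequences came from GENCODE M21 and near-identical genes from BLAST 2.17.0 (at least 150 nt at 95% identity). The genes named are the 9, their relatives Micu3, Vdac3 and Ghitm (1 further relative is not reported here), each further listed gene with an unadjusted p-value under 0.05, and the most abundant gene of each list. The 9 genes and all lists were chosen with earlier results of these data known. The code was tested on simulated data with changes of 1.5-fold to 3-fold. Of the 67 genes changed 1.5-fold, 67.2% passed the adjusted threshold. The 95% intervals held the true value for 94% of the genes changed 1.5-fold and for 89.6% of those changed 2-fold. Smaller changes, such as those fitted for the 9 genes, were not simulated.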

Additional observations from a re-analysis of the deposited data

How the results depend on the processing

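None of the 9 genes passed an adjusted p-value of 0.05 under any of the 13 alternatives that gave one (DESeq2 gave none for Slc8b1), the lowest being 0.242. Of their 117 log2 fold changes under these alternatives, 110 kept direction and side of the unadjusted threshold. The sign turned for Mcur1 (0.055) and Vdac1 (-0.046) without vehicle replicate 1 and for Mcub (-0.056) without 5D replicate 2, and over single omissions Mcur1 reached -0.35, Vdac1 0.23 and Mcub 0.095. Leaving out a library moved the members past the unadjusted threshold to between 0 and 1 higher and 0 and 2 lower, their median to between -0.058 and -0.0085, and the further listed genes to between 3 and 11; these fits assume that a lone library varies like the other group. Genes past the adjusted threshold, 5 higher and 12 lower, became 17 and 44 with DESeq2's Wald test, 9 and 23 with limma-voom, 11 and 35 without a filter, 9 and 32 with the replicate block, 19 lower with filterByExpr, and 3 to 73 higher and 12 to 107 lower without single libraries; the cause was not tested. The shared replicate numbers name no common animal or day, the replicate differences of both groups correlated at 0.015 over genes, and the block added 0 members. The difference in the share of Mcub was -1.15 percentage points with the longest transcript as length, chosen after seeing the data, and -0.95 to -0.47 without single libraries. The 2 libraries per group limit small changes, most for Slc8b1 and Mcur1.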
